A study of Danio rerio with 7 samples.

Results

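The genes described here mark red blood cells. They were chosen by name: 10 zebrafish genes were listed, and a gene was kept where its name belonged to a single Ensembl ID of the count table. This left 7 of 10 genes among 32189 IDs, namely the globin genes hbbe3, hbae1.1, hbae3 and hbae5, the transcription factor gene gata1a, the heme synthesis gene alas2 and the carbonic anhydrase gene cahz. The names hbbe1.1, hbbe2 and slc4a1a had no single ID in the names table used here, and these 3 genes were not analysed under their own names.

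Expression was measured by bulk RNA-seq of micro-dissected zebrafish hindbrain at 24 hpf (hours post-fertilisation), with 1 embryo per library. In the 3 Fgf20aHOM libraries the embryo was homozygous for the fgf20a mutation and came from in-crosses of homozygous fish, and in the 4 Cnt libraries it was a wild type of the LondonAB strain. All embryos were grown at 28.5°C. No littermates were compared, so the mutant line and the mutation cannot be told apart. The labels describe the tissue as hindbrain together with what surrounds it, whereas the study screened each dissection by qPCR for contamination. The Fgf20aHOM libraries are called F2, F3 and F4 after their columns.

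The first red cells of the zebrafish embryo form in the trunk mesoderm, not in the neural tube, and reach the head once circulation starts. They make hemoglobin, which joins alpha and beta globin chains around heme, and at this age use embryonic globin genes. Gata1 drives the red cell programme, Alas2 carries out the first and rate-limiting step of heme synthesis in these cells, the band 3 anion exchanger (Slc4a1) moves bicarbonate across the membrane, and carbonic anhydrase interconverts carbon dioxide and bicarbonate.

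The Fgf20aHOM libraries held 52900433 to 55915518 counts and the Cnt libraries 59800936 to 69801072. At this depth, a count of 0 allows a level of up to 3 counts, or 0.0430 to 0.0567 CPM (counts divided by the library total and scaled to 1e+06) depending on the library. The limit covers counting error only. The targeted gene could not be checked alone, because the symbol FGF20 belongs to both ENSDARG00000007356 and ENSDARG00000086070, with log2 fold changes of 0.19 and -0.33 and adjusted p of 0.893 and 0.805 by edgeR. The tissue label was checked with 9 brain genes (among them hoxb1a and hoxa2b, of the hindbrain segments), which together took 2588 to 2688 CPM in Fgf20aHOM and 1883 to 2779 CPM in Cnt. Of the 21 genes on the hindbrain list, only these 9 had a single ID, and all 9 passed the filter on low counts.

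Counts of the red cell genes were few and uneven across embryos. Together the 7 genes took 5.15, 27.6 and 3.89 CPM in Fgf20aHOM F2, F3 and F4, against 5.32, 10.5, 36.8 and 13.2 CPM in Cnt 1 to 4. The groups overlapped, with means of 12.2 ± 13.4 CPM in Fgf20aHOM and 16.5 ± 14.0 CPM in Cnt (SD, n = 3 and 4). Most of the sum in Cnt 3 was cahz alone, at 35.8 CPM. Cahz was also most of the sum in Cnt 1, Cnt 4 and Fgf20aHOM F4, at 4.80, 8.90 and 2.67 CPM. Without cahz the means were in the other order, 9.10 ± 11.9 CPM in Fgf20aHOM and 3.40 ± 3.32 CPM in Cnt, and the sums were 3.24, 22.8 and 1.23 CPM in Fgf20aHOM F2, F3 and F4, against 0.518, 7.71, 1.09 and 4.27 CPM in Cnt 1 to 4. Fgf20aHOM F3 alone held 51.7% of these counts over all 7 libraries, and F3 and Cnt 2 together held 72.6%. In bulk tissue, fewer red cells and less RNA per red cell cannot be told apart.

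**Figure D1:**
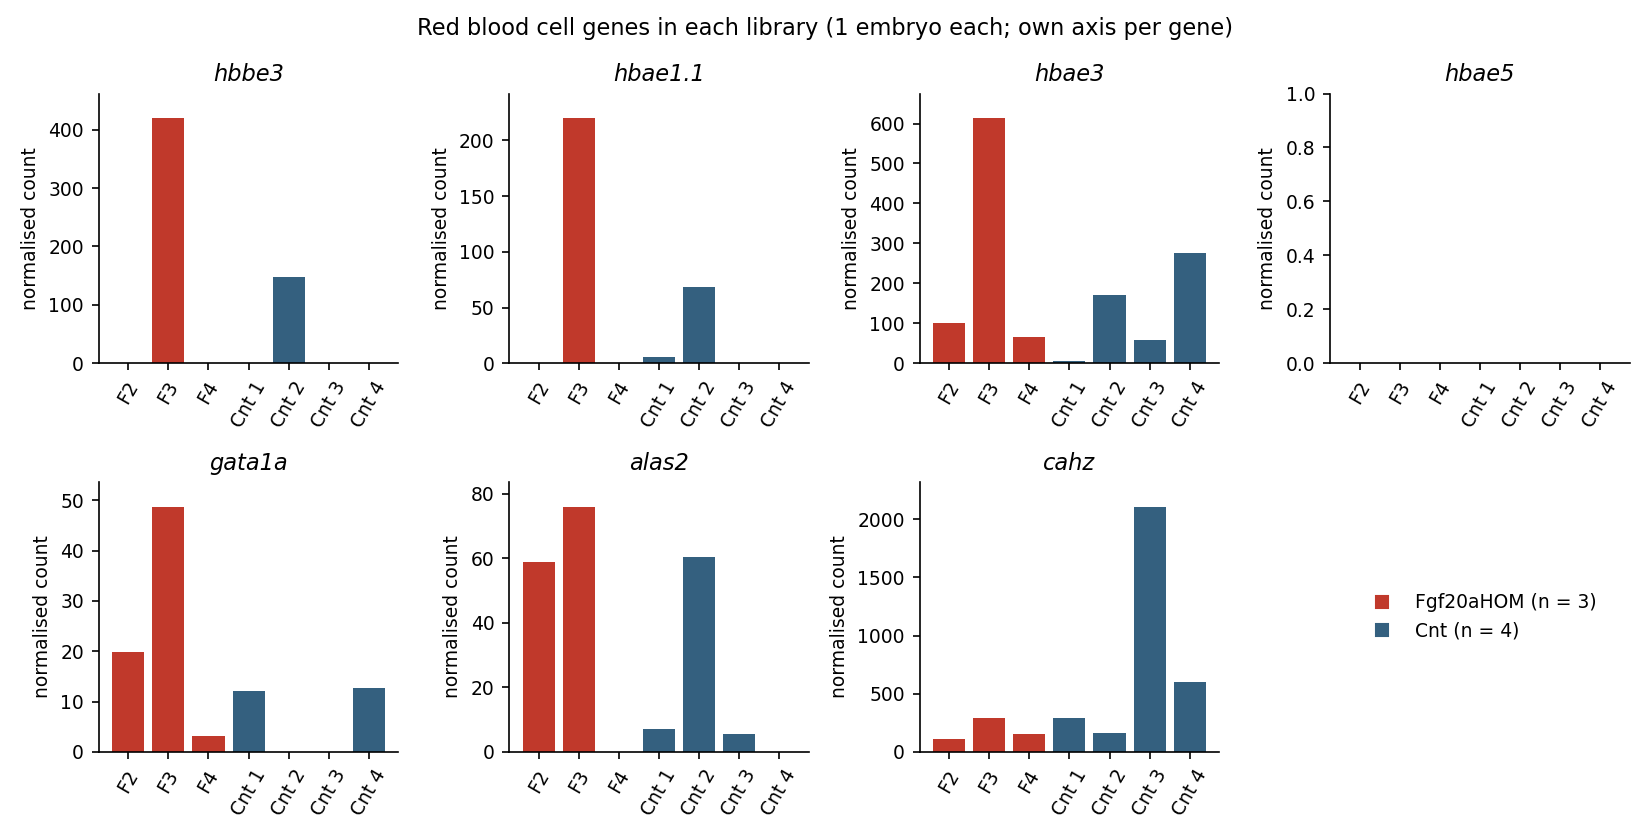
Normalised count (vertical axis, own scale for each gene) of the 7 red blood cell genes in each library (horizontal axis), with the 3 Fgf20aHOM libraries in red on the left and the 4 Cnt libraries in blue on the right. Each bar is 1 embryo. Fgf20aHOM F3 is the highest library for hbbe3, hbae1.1, hbae3, gata1a and alas2, Cnt 3 is the highest for cahz with 2109, and hbae5 is at 0 throughout.

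Among the beta globins only hbbe3 (ENSDARG00000038147) could be examined, which encodes an embryonic beta chain. Its normalised counts, which are counts at a common library size, were 0, 419.7 and 1.08 in Fgf20aHOM F2, F3 and F4, against 0, 147, 0 and 0 in Cnt 1 to 4. Thus 1 library of each genotype carried the gene and the other 5 held at most 1 count. Of its 532 counts, 99.8% lay in Fgf20aHOM F3 and Cnt 2. The filter, which asks for a minimum count in at least 3 libraries, removed hbbe3. With no filter, the edgeR quasi-likelihood test estimated 1.91 ± 2.88 (log2 fold change with SE, adjusted p = 0.790).

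The alpha globin gene hbae1.1 (ENSDARG00000089475) had the same highest libraries, with 0, 220.1 and 0 normalised counts in Fgf20aHOM F2, F3 and F4, against 6.03, 68.7, 0 and 0 in Cnt 1 to 4. Fgf20aHOM F3 and Cnt 2 held 97.8% of its 275 counts. It also failed the filter, and with no filter edgeR estimated 1.95 ± 2.37 (log2 fold change with SE, adjusted p = 0.723). In both genes the difference between libraries of 1 genotype was as wide as the whole range, and the groups overlapped.

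The alpha globin gene hbae3 (ENSDARG00000079305) was detected in all 7 libraries. Its normalised counts were 102, 614 and 66.1 in Fgf20aHOM F2, F3 and F4, against 6.03, 171, 58.5 and 277 in Cnt 1 to 4. Fgf20aHOM F3 was again the highest, but among the Cnt libraries Cnt 4 exceeded Cnt 2, although Cnt 4 had 0 counts of both hbbe3 and hbae1.1. By edgeR the log2 fold change was 1.02 ± 1.08 (SE, adjusted p = 0.693, and 0.358 to 0.915 over the alternatives tried). Without Fgf20aHOM F3 the estimate was -0.57 (adjusted p = 0.883 by edgeR). The fourth globin, hbae5 (ENSDARG00000045142), had 0 counts in every library and was not detectable at this depth.

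In the RefSeq table of the GRCz12tu assembly, the neighbouring coding genes of hbae1.1 are hbbe1.1 and hbbe1.2, and hbae3 follows hbae1.3. The gene hbbe3 sits between hbae4 and hbbe2 in another cluster, which also holds hbae5. The genes hbae1.1, hbae1.2 and hbae1.3 are copies of each other, and RSEM shares reads among such copies, so the value of any single copy is uncertain. For hbae1.2 the normalised counts were 11, 1045 and 23.8 in Fgf20aHOM F2, F3 and F4, against 5.03, 315, 31.6 and 20.4 in Cnt 1 to 4. Those of hbae1.3 were 2.99, 328 and 3.25 in Fgf20aHOM F2, F3 and F4, against 0, 114, 11.1 and 27.2 in Cnt 1 to 4. Both copies had the same highest library in each genotype as hbae1.1. Summed over the 3 copies, which does not depend on how reads were shared among them, the levels were 0.250, 26.4 and 0.473 CPM in Fgf20aHOM F2, F3 and F4, against 0.184, 8.58, 0.724 and 0.702 CPM in Cnt 1 to 4.

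The log2 fold changes were 1.95 ± 1.73 (SE) for hbae1.2 and 1.54 ± 1.76 (SE) for hbae1.3, with adjusted p of 0.634 and 0.718 by edgeR. Both turned negative without Fgf20aHOM F3, at -2.40 and -3.54, where Cnt 2 was the highest library left. Without both Fgf20aHOM F3 and Cnt 2, an alternative chosen after seeing the data, they were -0.099 and -1.96. Of the 14 other globins listed, only 5 had a single ID, and the remaining 3 of these had few or no counts. Over all libraries, hbaa1 reached at most 19 counts in any of them and hbae4 at most 5, and hbaa2 had 0.

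**Figure D2:**
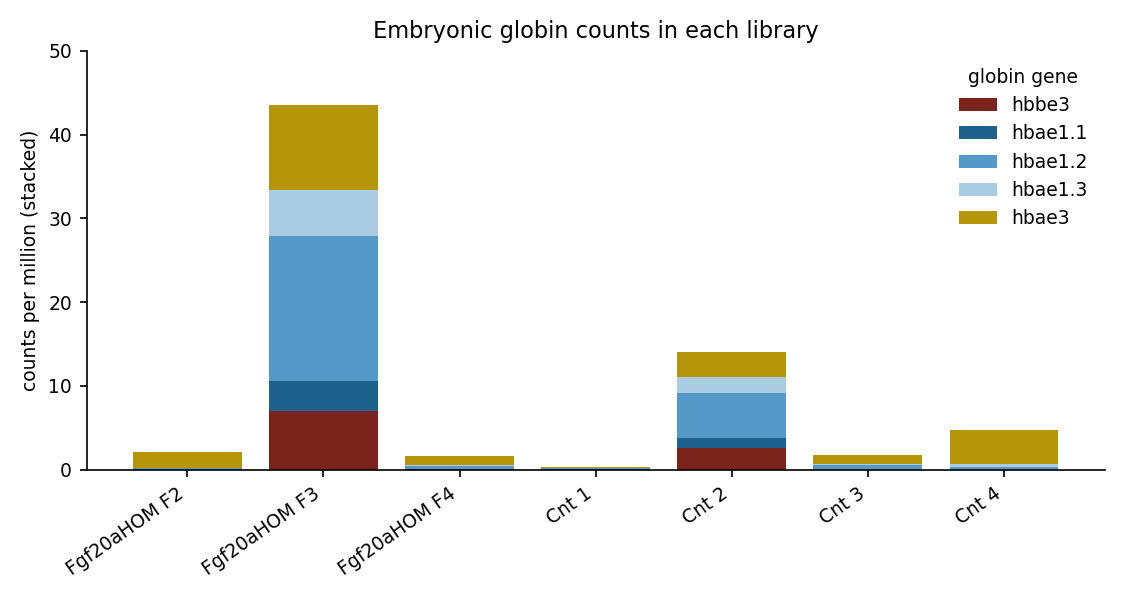
Level of 5 embryonic globin genes in CPM (vertical axis, stacked by gene) in each library (horizontal axis), with Fgf20aHOM on the left and Cnt on the right. Fgf20aHOM F3 and Cnt 2 are the tallest columns and the only ones with a visible hbbe3 share, whereas the column of Cnt 4 is mostly hbae3.

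Fgf20aHOM F3 and Cnt 2 were set side by side, as a comparison of these libraries and not of the genotypes. For hbbe3 the normalised count in Fgf20aHOM F3 was 2.85 times that in Cnt 2 (95% exact interval for counting error, 2.36 to 3.45). The ratio was 3.2 for hbae1.1 (2.44 to 4.24), 3.32 for hbae1.2 (2.93 to 3.76), 2.86 for hbae1.3 (2.31 to 3.56) and 3.58 for hbae3 (3.03 to 4.25). The intervals of all 5 globins overlapped, across both clusters. Both libraries were picked as those with most globin counts, and the hbae1 copies share reads, so their ratios are not independent. Error from amplification is left out of the intervals. The ratio was lower for alas2, at 1.26 (0.882 to 1.79), and for cahz, at 1.76 (1.45 to 2.15), and neither interval reached those of the globins. The transcription factor gata1a had 43 counts in Fgf20aHOM F3 and 0 in Cnt 2.

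**Figure D3:**
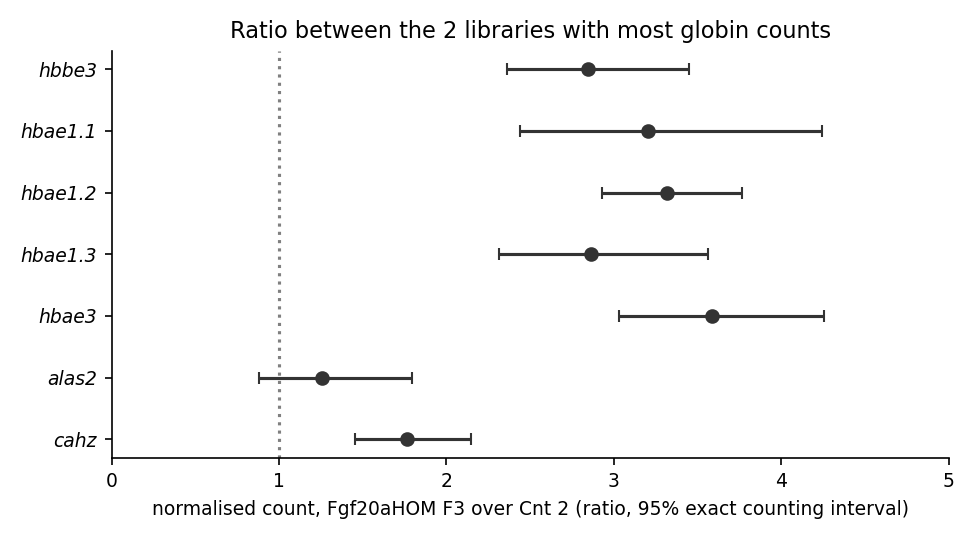
Ratio of the normalised count in Fgf20aHOM F3 to that in Cnt 2 (horizontal axis) for 5 globin genes, alas2 and cahz (vertical axis). Points are ratios, bars are 95% exact intervals for counting error and the dotted line marks equal levels. The globins lie between 2.85 and 3.58, above alas2 at 1.26 and cahz at 1.76.

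The gene gata1a (ENSDARG00000013477), which is required for red cell formation, had the fewest counts of the detected members, 91 over all libraries. Normalised, these were 19.9, 48.8 and 3.25 in Fgf20aHOM F2, F3 and F4, against 12.1, 0, 0 and 12.6 in Cnt 1 to 4. The highest value was again in Fgf20aHOM F3, and F2 also exceeded every Cnt library, whereas F4 lay between the Cnt values. The log2 fold change was 1.94 ± 1.65 (SE, adjusted p = 0.613 by edgeR), and it was 0.97 without Fgf20aHOM F3.

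The gene alas2 (ENSDARG00000038643) had another order of libraries, with 58.8, 76.0 and 0 normalised counts in Fgf20aHOM F2, F3 and F4, against 7.04, 60.4, 5.57 and 0 in Cnt 1 to 4. Fgf20aHOM F2 thus had an alas2 level close to that of F3 and Cnt 2, with 0 counts of hbbe3 and hbae1.1. EdgeR estimated a log2 fold change of 1.29 ± 1.72 (SE, adjusted p = 0.762). Its paralogue alas1, which serves heme synthesis in other tissues, had 5688, 2609 and 1838 normalised counts in Fgf20aHOM F2, F3 and F4, against 4703, 1730.0, 2564 and 1379 in Cnt 1 to 4 (log2 fold change 0.38 ± 0.48, SE). In each library alas1 counts outnumbered those of alas2, as counts and not per transcript length.

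The gene cahz (ENSDARG00000011166) was highest in a Cnt library, unlike the other members. Its normalised counts were 107, 289 and 153 in Fgf20aHOM F2, F3 and F4, against 289, 164, 2109 and 604 in Cnt 1 to 4. Cnt 3 stood far above the rest, and Cnt 2, which was rich in globins, lay within the Fgf20aHOM range, so the groups overlapped. For cahz edgeR estimated a log2 fold change of -2.11 ± 0.84 (SE, unadjusted p = 0.0320, adjusted p = 0.265). The adjusted p over the alternatives tried ran between 0.0606, by DESeq2, and 0.622. The size rested on Cnt 3: without it the log2 fold change was -0.95 (adjusted p = 0.490 by edgeR). Cnt 3 had the lowest summed level of the 9 brain genes, 1883 CPM, and the part of this in the cahz value was not tested. It had little globin, with 63 counts of hbae3 and 0 of hbbe3 and hbae1.1.

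The anion exchanger could be followed only through its symbol. Both IDs named SLC4A1, without the letter of the copy, were examined after their values were seen. For ENSDARG00000012881 the values were 0, 87.3 and 7.58 normalised counts in Fgf20aHOM F2, F3 and F4, against 0, 0.916, 9.28 and 0 in Cnt 1 to 4. It was thus highest in Fgf20aHOM F3, like the globins, but nearly absent from Cnt 2. ENSDARG00000024560 had 84.7, 35.2 and 23.8 in Fgf20aHOM F2, F3 and F4, against 57.3, 71.4, 104 and 50.6 in Cnt 1 to 4, and was not high in F3. Its log2 fold change was -0.56 ± 0.76 (SE, adjusted p = 0.764 by edgeR), and the other ID failed the filter.

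To be called, a gene needed an adjusted p no higher than 0.01, a 2-fold or larger difference and more than 30 normalised counts in every library of Fgf20aHOM or of Cnt. Of the 7 members, 4 passed the filter (hbae3, gata1a, alas2 and cahz), and 0 of these were called. Gata1a and alas2 lacked the required normalised counts in both groups, so only hbae3 and cahz could be called. Of all 19589 tested genes, 0.439% were called (0.230% higher and 0.209% lower in Fgf20aHOM). By edgeR, none of the 4 tested members reached an adjusted p of 0.05 or less, which 1.51% of tested genes had. DESeq2 and limma-voom also called 0 members. Of all genes, DESeq2 called 2.51% of the 25221 it was given, and limma-voom called 99 of 19589. In DESeq2, run without the filter, the limit on normalised counts also barred hbbe3 and hbae1.1. At an unadjusted p under 0.05 by edgeR there was 1 member, cahz, against 15.6% of all tested genes. The groups overlapped in all 4 tested members, where they did not overlap in 17.5% of tested genes (9.46% higher and 8.03% lower in Fgf20aHOM). The 4 log2 fold changes had a median of 1.16 beside -0.048 for all tested genes, and this median covers only members that passed the filter. Without Fgf20aHOM F3 the median was 0.097. The spread between libraries was wide: the biological coefficient of variation was 0.967 for hbae3, 1.38 for gata1a, 1.54 for alas2 and 0.714 for cahz, above that of 83.4%, 94.6%, 97.2% and 71.6% of tested genes. In mean CPM these genes exceeded only 33.5%, 4.20%, 12.1% and 49.8% of tested genes. The ranks of spread were not matched for abundance.

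**Figure D4:**
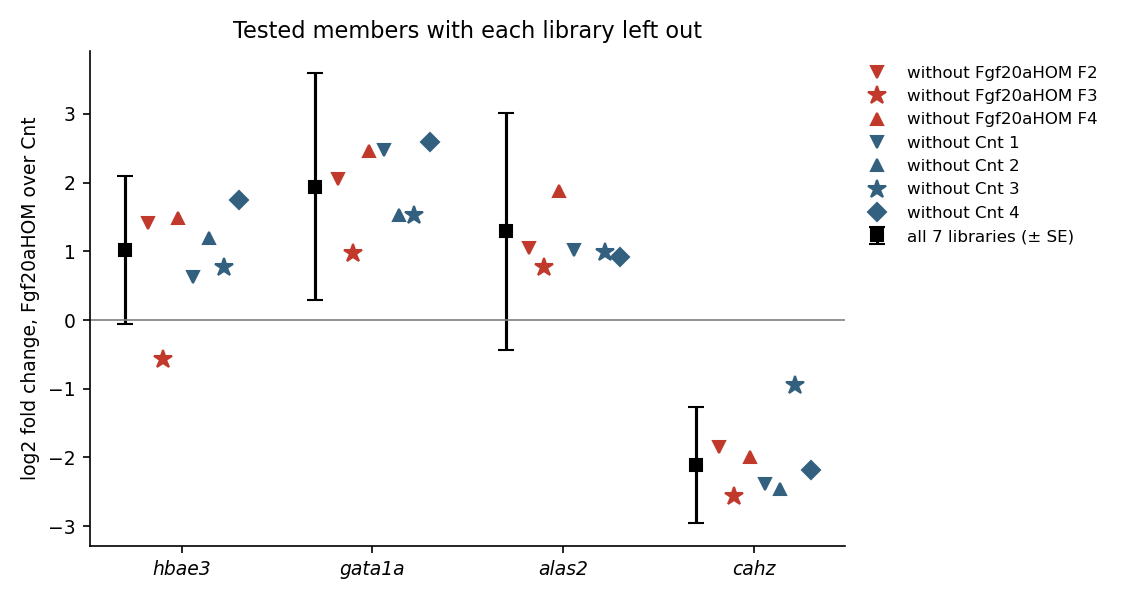
Log2 fold change of Fgf20aHOM over Cnt (vertical axis) for the 4 tested members (horizontal axis). Black squares show the fit to all 7 libraries with its SE, red symbols the fit without 1 Fgf20aHOM library and blue symbols the fit without 1 Cnt library. The value of hbae3 is below 0 without Fgf20aHOM F3, cahz is at -0.95 without Cnt 3, and alas2 has no symbol for Cnt 2 because it then failed the filter.

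Further genes of the red cell were read from 6 lists with 73 distinct IDs, of which 59 passed the filter. Again 0 were called by edgeR or limma-voom. DESeq2, run without the filter, called 2 of 72, where it called 2.51% of all 25221 genes it was given. It gave hbae1.2 and hbae1.3 no p-value, so these were counted among the 72 but could not be called. Both also lacked the required normalised counts in both groups, so edgeR and limma-voom could not call them either. The same limit barred other list genes with few counts, such as tfr1a, kel and epor. The unadjusted p by edgeR was under 0.05 for 10 of 59 (16.9%), close to the 15.6% of all tested genes. By list, these were 5 of 10 erythroid transcription factors, 3 of 13 iron genes and 2 of 11 antioxidant genes. Of the heme genes there was 1 of 13, blvrb, which is also in the antioxidant list. The other globins (2 tested) and the membrane list (11 tested) had 0. Of the 5 factors, tal1, klf17, lmo2 and trim33 were higher in Fgf20aHOM and myb was lower. Of the 59, 27 had a positive log2 fold change, as had 47.3% of all tested genes. The groups did not overlap in 8 of 59 genes (13.6%), beside 17.5% of all tested genes. Median log2 fold changes were 1.74 for the other globins (2 tested), 0.63 for erythroid transcription factors (10 tested), -0.18 for heme synthesis and handling (13 tested), -0.039 for iron uptake and storage (13 tested), 0.27 for membrane, gas exchange and receptors (11 tested) and -0.45 for antioxidant enzymes (11 tested). Without Fgf20aHOM F3 the median of the other globins was -2.97. Without Cnt 2 that median was 3.67, and without both libraries it was -1.03. The values of each list thus straddled 0 except in the other globins, whose median depended on Fgf20aHOM F3 and Cnt 2.

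**Figure D5:**
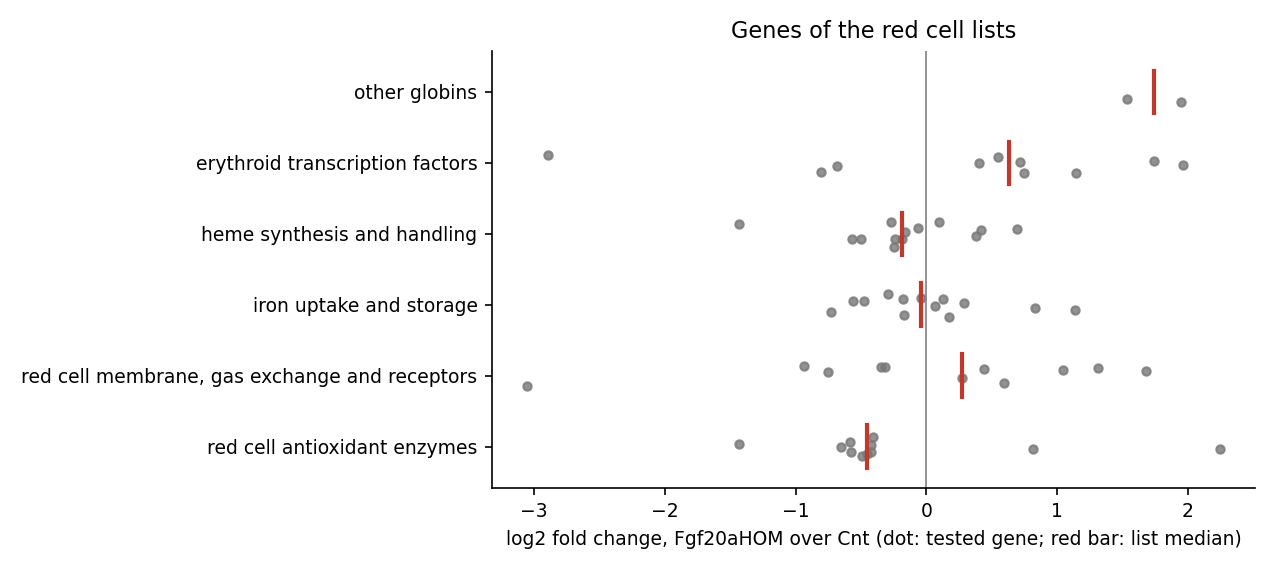
Log2 fold change of Fgf20aHOM over Cnt (horizontal axis) for each tested gene (grey dots) of 6 red cell lists (vertical axis), with the list median as a red bar. The other globins lie near 1.74 and the remaining medians lie between -0.45 and 0.63.

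Of the transcription factors, the genes that DESeq2 called were tal1 and klf17, which are named here after their values were seen. Tal1 is needed to form blood and is also expressed in neurons of the hindbrain. Its normalised counts were 2287, 2743 and 786 in Fgf20aHOM F2, F3 and F4, against 641, 474, 737 and 461 in Cnt 1 to 4. All Fgf20aHOM libraries lay above all Cnt libraries (log2 fold change 1.75 ± 0.40, SE). The difference had an adjusted p of 0.0748 (edgeR) or 0.00231 (DESeq2), with a range of 0.00231 to 0.315 over the alternatives tried. Klf17 is a Krüppel-like factor of zebrafish red cells and of the hatching gland. In normalised counts it had 503, 1225 and 489.5 in Fgf20aHOM F2, F3 and F4, against 229, 121, 285 and 122 in Cnt 1 to 4. The groups again did not overlap (log2 fold change 1.97 ± 0.48, SE). Here the adjusted p was 0.0880 with edgeR but 0.00282 with DESeq2, and it had a range of 0.00282 to 0.345 over the alternatives tried. Both differences were smaller without Fgf20aHOM F3, at 1.48 for tal1 and 1.44 for klf17.

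The genes of this list with the highest mean CPM were trim33, cbfb and myb, none of them restricted to blood. Trim33, a cofactor required for blood formation, averaged 3817 ± 1523 in Fgf20aHOM and 2321 ± 384 in Cnt (normalised counts, SD, n = 3 and 4), and its log2 fold change was 0.72 ± 0.28 (SE). Cbfb, the partner of Runx factors, averaged 2408 ± 1395 in Fgf20aHOM and 1431 ± 281 in Cnt, with F4 at 4016. Myb, a factor of blood stem cells and of other dividing cells, averaged 1216 ± 84.9 in Fgf20aHOM and 1948 ± 479 in Cnt, and its groups did not overlap (log2 fold change -0.68 ± 0.26, SE). The adjusted p of these genes was 0.260, 0.345 and 0.238 by edgeR. Other factors differed in how far they were detected, and those named were picked after their values were seen. Over all libraries zfpm1, a partner of Gata1, had 2280 counts and nfe2, a red cell and platelet factor in mammals, had 542. The log2 fold change was 0.55 for zfpm1 and -0.81 for nfe2 (adjusted p of 0.842 and 0.763 by edgeR). Gata2b averaged 19.6 ± 19.0 normalised counts in Fgf20aHOM and 147 ± 172 in Cnt (SD). Its log2 fold change was -2.89 (adjusted p = 0.483 by edgeR). Of the 10 tested factors, 7 had a positive log2 fold change, and gata2b, nfe2 and myb had a negative one. Gfi1aa had 12 and 16 counts in Cnt 1 and Cnt 3 and 0 in all other libraries. Gata1b had 8 and 5 counts in Fgf20aHOM F3 and F4 and 0 in F2 and in Cnt, and klf1 had a single count, in Fgf20aHOM F3.

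Of the lists for heme and for iron, the genes with the highest mean CPM had more counts than any member, and none was called. Alad, which follows Alas in heme synthesis, averaged 4348 ± 1295 in Fgf20aHOM and 4867 ± 1629 in Cnt (normalised counts, SD, n = 3 and 4). The mitochondrial carrier gene slc25a39 averaged 3219.5 ± 476 in Fgf20aHOM and 3803 ± 1557 in Cnt. The ferritin gene fthl27 averaged 36482 ± 9915 in Fgf20aHOM and 44737 ± 11384 in Cnt. These averages differed by less than the larger SD. Another ferritin gene, fth1a, averaged 23037 ± 5401 in Fgf20aHOM and 32107 ± 7594 in Cnt, and the transferrin receptor gene tfr1b averaged 3296 ± 607 in Fgf20aHOM and 3153 ± 1753 in Cnt. The log2 fold changes of these 5 genes lay between -0.48 and 0.064, with adjusted p of 0.401 to 0.956 by edgeR.

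In the membrane list, the genes with the highest mean CPM were the carbonic anhydrase gene ca2, dmtn and sptb. Ca2 averaged 697 ± 147 in Fgf20aHOM and 887 ± 388 in Cnt (normalised counts, SD, n = 3 and 4). Dmtn, which encodes an actin-bundling protein of the red cell skeleton, averaged 568 ± 65.8 in Fgf20aHOM and 377 ± 120.1 in Cnt, with groups that did not overlap. Sptb, which encodes a spectrin, averaged 419.8 ± 287 in Fgf20aHOM and 203 ± 222 in Cnt. Their log2 fold changes were -0.35 ± 0.38, 0.59 ± 0.35 and 1.04 ± 1.25 (SE), with adjusted p of 0.706, 0.454 and 0.735 by edgeR. None of them was highest in Fgf20aHOM F3 by a margin like that of the globins.

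Of the antioxidant list, txn, which encodes thioredoxin, averaged 48985 ± 14196 in Fgf20aHOM and 72907 ± 24718 in Cnt. Gclc, of glutathione synthesis, averaged 3490.3 ± 996 in Fgf20aHOM and 4622 ± 374 in Cnt (normalised counts, SD, n = 3 and 4 in each). Both had negative log2 fold changes, of -0.57 and -0.41, and adjusted p of 0.398 and 0.447 by edgeR.

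Genes whose level over the 7 libraries was most like the mean of the 4 tested members were ranked by Pearson's r of log2 CPM. The 10 with the highest r were nop10, rab33b, lmo2, snx8, tmem125, mtpn, pde11al, cldn2, rab38c and gje1, with r of 0.920 to 0.963 over 7 libraries. These are the highest values among 19589 tested genes and are given as a description. The members themselves had r of 0.759 (hbae3), 0.585 (gata1a), 0.685 (alas2) and -0.013 (cahz) with their own mean, so the mean represents cahz poorly. Lmo2, a partner of Tal1 and Gata1 in blood and vessel progenitors, had 1199, 2261 and 489.5 normalised counts in Fgf20aHOM F2, F3 and F4, against 442, 689.6, 663 and 591 in Cnt 1 to 4 (log2 fold change 1.14 ± 0.45, SE, adjusted p = 0.251 by edgeR, and 0.56 without Fgf20aHOM F3). The gene pde11al, a phosphodiesterase gene by its name, had 19.9, 603 and 4.33 in Fgf20aHOM F2, F3 and F4, against 11.1, 38.5, 31.6 and 24.3 in Cnt 1 to 4. Its value in F3 was thus far above every other library (log2 fold change 2.98 ± 1.3, SE, adjusted p = 0.305 by edgeR).

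Markers of other tissues did not place the library with most globin counts at either extreme of all 7 libraries. Over 7 lists of such markers, Fgf20aHOM F3 had the highest summed level in 0 lists and the lowest in 0. Cnt 2 had the highest in 2 (endothelium, and the 9 brain genes) and the lowest in 2 (epidermis, and yolk and hatching gland). Among the Fgf20aHOM libraries alone, F3 was lowest for brain, myeloid, muscle, and yolk and hatching gland genes, and highest in no list. Endothelial genes summed to 219 to 268 CPM in Fgf20aHOM and 109 to 316 CPM in Cnt, myeloid genes to 23.8 to 55.0 CPM in Fgf20aHOM and 7.22 to 52.5 CPM in Cnt, and thrombocyte and early blood genes to 0.813 to 5.63 CPM in Fgf20aHOM and 0.518 to 3.51 CPM in Cnt. Epidermal genes summed to 4778 to 12879 CPM in Fgf20aHOM and 4486 to 26768 CPM in Cnt, muscle genes to 40.0 to 706 CPM in Fgf20aHOM and 4.11 to 499.9 CPM in Cnt, and yolk and hatching gland genes to 9.08 to 19.1 CPM in Fgf20aHOM and 4.87 to 254 CPM in Cnt. The ranges of the groups overlapped in all 7 lists, and their part in the red cell values was not tested. By edgeR 0 of their 63 tested genes were called, and 10 (15.9%) had an unadjusted p under 0.05, near the 15.6% of all tested genes. Alternatives called 3 of them, which are named after their values were seen. The epidermal genes krt91 and agr2 were lower in Fgf20aHOM by DESeq2, and agr2 also by edgeR without Cnt 2. The fibrinogen gene fga, of the yolk and hatching gland list, had 312, 294 and 300.0 normalised counts in Fgf20aHOM F2, F3 and F4, against 0, 0, 12.1 and 0 in Cnt 1 to 4. Its groups did not overlap, with an adjusted p of 0.0499 by edgeR and 0.00812 without Cnt 3.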

How the data were processed

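Libraries were amplified with the NuGEN Ovation kit, prepared with Nextera XT and sequenced as paired ends by the authors. The deposited values are expected counts per gene, made by the authors with STAR 2.5.1b and RSEM 1.2.31 on GRCz10 with Ensembl transcripts and rounded to whole numbers, without scaling for depth. Strand setting was not given in the sources used here. Fgf20aHOM columns could be matched to their group but not to single samples. Symbols were found for 26350 of 32189 IDs (81.9%), ignoring case. RefSeq positions served only for gene order.

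Counts were tested with the edgeR 4.0.16 quasi-likelihood F test (R 4.3.3, TMM, filterByExpr, robust estimation, genotype as the only term), two-sided, with Benjamini-Hochberg adjustment over 19589 genes. The fit was tested on simulated data with less spread between libraries than these data, so that test does not cover genes as variable as the members. Normalised counts are counts over the TMM-scaled library size, times its mean. The SE given with a log2 fold change was derived from the edgeR test, as the absolute log2 fold change over the square root of F. Alternatives were DESeq2 1.42.0, limma-voom (limma 3.58.1) with quality weights, other scalings, filters and limits, and each library left out. Named genes were the members, the 3 most abundant genes of each red cell list (6 lists), called list genes and the 10 genes most like the members (log2 CPM, prior count 2). A gene that this rule names is not reported here. Members and lists were chosen with earlier results of these data known.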

Additional observations from a re-analysis of the deposited data

Results flagged for a closer look

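Extreme libraries were sought among the 4 Cnt libraries in 7 measures (6 detected members and the sum without cahz), by dividing the gap to the nearest library by the spread of all 4. Dixon's limit is 0.829. Chance exceeds it in about 1 of 20 independent measures if values are normally distributed, which counts with many zeros are not. Of these 7, 3 exceeded it, all in Cnt 2, and they are not independent, because they come from 1 library already seen to hold many globin counts.

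Hbbe3 had a normalised count of 147 in Cnt 2, whereas Cnt 1, 3 and 4 had 0, which makes the gap 1.00 times the range whatever the value in Cnt 2. Hbae1.1 had 68.7 in Cnt 2, where Cnt 1, 3 and 4 averaged 2.01 (gap 0.912). Alas2 had 60.4 in Cnt 2, where they averaged 4.20 (gap 0.884). The groups of 3 Fgf20aHOM libraries were not examined in this way.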

How the results depend on the processing

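No member was called in any of the 16 alternatives, and DESeq2 alone called red cell list genes (2, tal1 and klf17). The limit on normalised counts, where kept, barred hbbe3, hbae1.1 and gata1a wherever they were tested, and alas2 except without Fgf20aHOM F4. Where a gene was barred, the absence of a call was fixed by the limit. The log2 fold change of hbae3 lay between -0.57 and 1.74 with 1 library left out, and reached 2.64 with limma-voom. It was -0.57 without Fgf20aHOM F3 and -0.40 without both Fgf20aHOM F3 and Cnt 2, an alternative chosen after seeing the data. Directions of gata1a, alas2 and cahz were kept wherever they were tested, with values of 0.56 to 2.90, 0.77 to 1.88 and -2.90 to -0.95. The summed share of the members differed by -4.24 CPM (Fgf20aHOM minus Cnt), by -11.9 to 2.55 CPM with 1 library left out, and was positive only without Cnt 3, whose share was mostly cahz. The count of 86 called genes was 634 with DESeq2 (run without the filter, where edgeR called 117), 170 with a filter at 1 CPM, 296 at an adjusted p of 0.05 alone, 15 to 69 with 1 library left out (15 without Fgf20aHOM F3), and 10 without both libraries. The causes were not tested. No paired analysis was possible because the libraries are single embryos of separate lines and the Fgf20aHOM columns could not be matched to numbered samples. The members varied between embryos, and a count of 0 allows up to 3 counts (0.0430 to 0.0567 CPM). The part of spread and of depth in the results was not tested.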
